A study of Homo sapiens with 6 samples.

Results

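The NDRG (N-myc downstream regulated gene) family has 4 members in the human genome, NDRG1, NDRG2, NDRG3 and NDRG4, and they were found by their gene symbols among the 60708 genes in the table of counts. The family was selected on the log2 fold changes of the same comparison of VHL-KO with VC, NDRG1's among them, so the change of its members is given here as a description, without a test. The study asked how loss of VHL alters gene expression in Caki-1 cells, a human line of clear cell carcinoma of the kidney that carries an intact VHL gene. The VC cells have the WT genotype and were infected with the lenti-CRISPR vector alone. The VHL-KO cells were infected with the same kind of vector carrying a guide RNA against VHL, and both were put under puromycin. According to the methods of the study, VHL-KO cells were grown as single clones and screened by immunoblot, so the knockout stands for few clones or 1. Which guide and clone were sequenced, whether VC is a clone, and whether the replicates are separate cultures is not given in the sources used here. Total RNA of 3 VC and 3 VHL-KO samples was sequenced. The counted reads came to 31789923, 28463579 and 34881739 in VC replicates 1 to 3 and to 29139722, 22805385 and 22628246 in VHL-KO replicates 1 to 3.

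NDRG proteins share an alpha/beta hydrolase fold but lack the residues that make related proteins enzymes. NDRG1 is a cytoplasmic protein of epithelial and myelinating cells whose transcript is a classical target of hypoxia-inducible factors (HIF) and which is phosphorylated by SGK1 and then by GSK3. VHL is the part of a ubiquitin ligase that recognises hydroxylated HIFα, and its loss in clear cell carcinoma leaves HIFα in place at normal oxygen.

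VHL itself was read first. The gene spans positions 10141778 to 10153667 of chromosome 3 (GRCh38), and it had 1454, 1124 and 1522 reads in the VC samples and 929, 657 and 650 reads in the VHL-KO samples. As CPM, the share of a gene in the reads of its library on a common scale, with TMM factors from edgeR that correct for depth and composition, these are 42.6, 37.8 and 40.1 CPM in VC and 34.8, 30.4 and 30.5 CPM in VHL-KO. The VHL-KO samples lay below the VC samples without overlap, as 33.5% of the 17401 tested genes did. The log2 fold change of VHL was -0.33, with a standard error (SE) of 0.11 and an adjusted p of 0.0109 (edgeR, quasi-likelihood test, p adjusted over all tested genes by Benjamini-Hochberg). Without VC replicate 1 it was -0.28 (edgeR adjusted p = 0.0862) and without VHL-KO replicate 2 it was -0.30 (edgeR adjusted p = 0.0621). It was -0.22 with upper quartile factors (edgeR adjusted p = 0.0905) and -0.16 once each library's trend with GC content and gene length was taken out by offsets (edgeR adjusted p = 0.0977), or -0.17 with the replicate number as a block as well (edgeR adjusted p = 0.0568). In each of these the call at 0.05 was lost, and over all alternatives the adjusted p of edgeR or DESeq2 ranged from 2.93e-04 to 0.0977. A count over a whole gene does not show an edit within it, and 23.5% of VHL's exonic bases overlap a gene on the opposite strand. Because separate cultures are not stated, p-values here measure the spread between these samples, which may be technical.

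Markers of kidney epithelium were present in both groups, though not all of them, and they did not move together. CDH16 rose by 3.42 and LHX1 fell by 1.67 on the log2 scale. EPCAM, with 56, 31 and 50 reads in VC and 17, 14 and 4 reads in VHL-KO, fell by 1.42. KRT8 was the most abundant of the 10 markers, PAX8 stood at 428 ± 38.9 CPM in VC and 614 ± 14.2 CPM in VHL-KO (SD, n = 3 each), and PAX2 had 0 reads in every sample. Of the exonic bases of PAX8 22.4% overlap a gene on the opposite strand. The summed level of the list was 1714, 1927 and 1562 CPM in VC and 2390, 2313 and 2325 CPM in VHL-KO, and of its 9 tested genes 5 were higher, 2 were lower and 2 did not pass the test, where 28.5% of all tested genes were higher and 31.2% lower. Among markers of blood cells CD3E had 0 reads in every sample and PTPRC had at most 1 read in a sample, while the sum of the list, led by CD14, was 1.73, 1.72 and 1.32 CPM in VC and 4.38, 5.42 and 3.99 CPM in VHL-KO. Neuron and glia markers, read because NDRG2 is known from astrocytes, summed to 34.6, 38.6 and 39.3 CPM in VC and 41.7, 44.6 and 45.3 CPM in VHL-KO, with MBP the most abundant and SOX10 at 0 reads, and of their 6 tested genes 0 passed the adjusted threshold in edgeR, 1 passed unadjusted in edgeR and 1 passed in DESeq2. Stromal and endothelial markers, led by COL1A1, summed to 43.4, 47.4 and 37.1 CPM in VC and 30.5, 27.5 and 26.0 CPM in VHL-KO. Of their 3 tested genes COL1A1 and PDGFRB were lower, but the endothelial marker PECAM1, with 1, 5 and 0 reads in VC and 14, 7 and 9 reads in VHL-KO, was higher, a gene tested through VHL-KO replicate 1 alone. The part of these values in the NDRG values was not tested.

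NDRG1 was low in VC cells and among the 200 genes with the most reads in each VHL-KO sample. The gene lies on the minus strand of chromosome 8 from 133237175 to 133302022. It had 413, 331 and 445 reads in VC and 19464, 16703 and 16656 reads in VHL-KO, or 12.1, 11.1 and 11.7 CPM against 729, 774 and 781 CPM. Every VHL-KO sample stood far above every VC sample, and samples of a group differed little. The log2 fold change was 6.03 (SE 0.11), a 65.3-fold higher level in VHL-KO. By reads per gene NDRG1 ranked 7948, 8026 and 8161 in the VC samples and 200, 188 and 181 in the VHL-KO samples. In bulk RNA, more cells that express a gene and more RNA per cell cannot be told apart, nor can fewer cells and less RNA per cell.

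Of the 17401 tested genes, 24 had a larger log2 fold change than NDRG1. In 21 of these 24, every VC library was at or under 3 reads, so that the fitted fold rests on a level near 0 in VC. With at least 10 reads in each VC sample there were 0 such genes, and 0 of the 24 reached the VHL-KO level of NDRG1 in CPM.

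NDRG2, best known from brain and described as a tumour suppressor, was barely detected. The gene lies on the minus strand of chromosome 14 from 21016763 to 21070872, and had 29, 17 and 14 reads in VC and 44, 30 and 37 reads in VHL-KO, or 0.849, 0.572 and 0.369 CPM against 1.65, 1.39 and 1.74 CPM. The VHL-KO samples were higher without overlap, but VC replicate 1 stood well above VC replicate 3. Its log2 fold change was 1.42 (SE 0.37), and it ran from 1.17 to 1.77 when each sample was left out in turn. The mean of 31.3 scaled counts makes this the least precise value of the family.

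NDRG3, whose protein is known to be removed in an oxygen-dependent way and kept by lactate, was the main member in VC cells. The gene lies on the minus strand of chromosome 20 from 36651766 to 36746090. It had 2187, 1726 and 2534 reads in VC and 1791, 1445 and 1488 reads in VHL-KO, or 64.1, 58.1 and 66.7 CPM against 67.0, 67.0 and 69.8 CPM. The lowest VHL-KO sample lay just above the highest VC sample. Its log2 fold change of 0.11 (SE 0.10) was close to its error, and it changed sign to -0.085 with library size alone as the scaling.

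NDRG4, known from heart and brain, stood between these. The gene lies on the plus strand of chromosome 16 from 58462846 to 58513628, and had 891, 827 and 836 reads in VC and 762, 663 and 618 reads in VHL-KO, or 26.1, 27.8 and 22.0 CPM against 28.5, 30.7 and 29.0 CPM. VHL-KO replicate 1 exceeded VC replicate 2 by little, and VC replicate 3 was the lowest sample. Here the log2 fold change was 0.22 (SE 0.12), which changed sign to -0.15 once each library's trend with GC content and gene length was taken out.

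**Figure D1:**
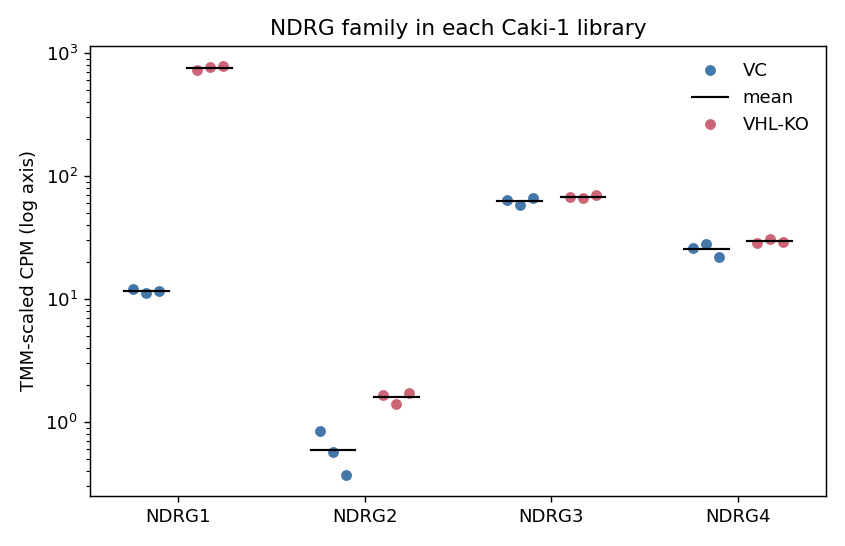
TMM-scaled CPM on a log axis for the 4 NDRG genes, with a point for each of 3 VC and 3 VHL-KO samples and a line at the mean. NDRG1 goes from 11.1 to 12.1 CPM in VC to 729 to 781 CPM in VHL-KO, while NDRG3 and NDRG4 differ little and their log2 fold changes change sign with the processing.

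In all 4 members the VHL-KO samples lay above the VC samples without overlap in TMM-scaled CPM, which held for 31.2% of all tested genes, while 64.7% did not overlap in either direction. Scaled by library size alone, the groups of NDRG3 overlapped, at 68.8, 60.6 and 72.6 CPM in VC and 61.5, 63.4 and 65.8 CPM in VHL-KO, and so did those of NDRG4, at 28.0, 29.05 and 24.0 CPM in VC and 26.1, 29.07 and 27.3 CPM in VHL-KO. By edgeR's test 59.7% of all tested genes passed an adjusted p of 0.05, 28.5% higher and 31.2% lower in VHL-KO. Higher genes made up 47.7% of the calls, and 35.8% with library size alone. The median log2 fold change of all tested genes was -0.01, moving to -0.20 when libraries were scaled by size alone and to 0.10 by upper quartiles. Relative to that median NDRG3 at -0.085 remained above the middle of all genes with library size alone. The plot of the members under each setting shows that NDRG1 and NDRG2 were above 0 in 15 of 15 settings, NDRG3 in 14 and NDRG4 in 13.

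**Figure D2:**
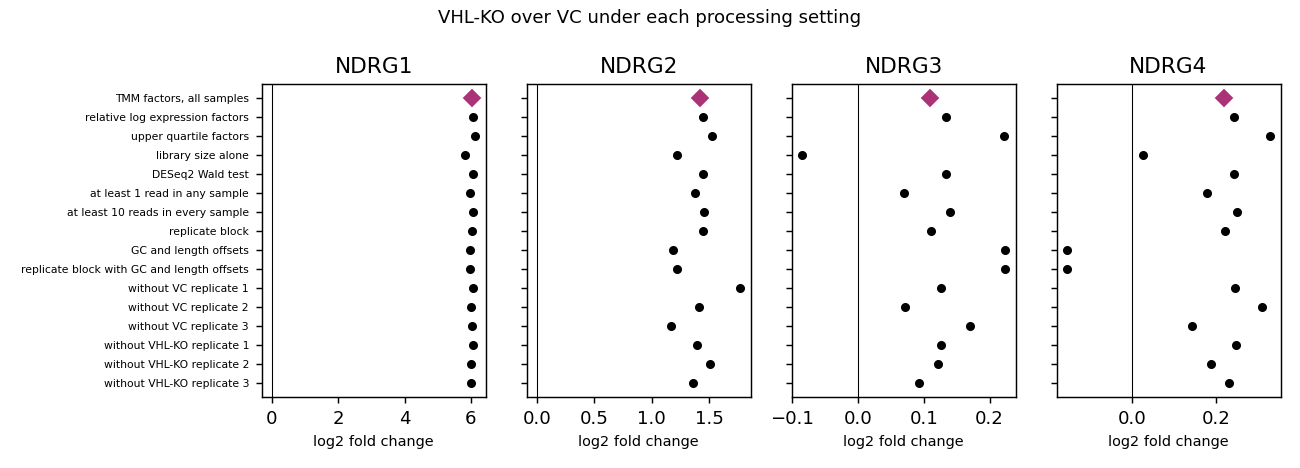
Log2 fold change of VHL-KO over VC for each NDRG gene (x axes, with ranges of their own) under each processing setting, the diamond marking the value given in the text. NDRG1 runs from 5.84 to 6.14 and NDRG2 from 1.17 to 1.77, whereas NDRG3 falls to -0.085 with library size alone and NDRG4 to -0.15 with GC and length offsets.

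Fold changes in these libraries followed GC content. The median log2 fold change rose from -0.45 in genes under 40% GC to 0.50 in genes over 60% GC. NDRG1 has 52.1% GC, and the 5624 tested genes within 5 percentage points of it had a median log2 fold change of 0.11, with 95% of them under 2.11. For NDRG2 at 56.3% GC that median was 0.25, with 95% of the genes under 2.19, and NDRG2 at 1.42 lay under that bound. NDRG3 at 46.4% GC lay above its median of -0.11, and NDRG4 at 59.9% GC, with a log2 fold change of 0.22, lay below its median of 0.37. The part of GC content in the values of NDRG3 and NDRG4 was not tested beyond the offsets above.

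Levels of different genes can be set side by side per kb of length. Divided by the length of all annotated exons, the mean levels in VC were 19.3 ± 1.36 CPM per kb for NDRG3, 2.62 ± 0.309 for NDRG4, 0.971 ± 0.0401 for NDRG1 and 0.079 ± 0.032 for NDRG2 (SD, n = 3). In VHL-KO the order was NDRG1 at 63.4 ± 2.38 CPM per kb, NDRG3 at 20.8 ± 0.493, NDRG4 at 3.05 ± 0.12 and NDRG2 at 0.211 ± 0.0237. Neighbours in both orders were further apart than their spread. NDRG1 thus moved from the third place to the first, and the other members kept their order.

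The exons of NDRG1 add up to 12002 bases and those of NDRG3 to 3260 bases, while their canonical transcripts have 3025 and 2971 bases. With canonical lengths, a choice made after the exonic lengths were seen, NDRG1 stood at 3.85 CPM per kb in VC and 252 CPM per kb in VHL-KO, and NDRG3 at 21.2 and 22.9 CPM per kb. The order of the members was the same in both groups with either length. Summed over the family, the level was 3.81 times as high in VHL-KO with exonic lengths and 8.58 times with canonical lengths. Without NDRG1 the sum was 1.09 times as high with exonic and 1.11 times with canonical lengths.

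Shares within the family do not depend on the scaling between samples. NDRG1 made up 4.29%, 4.28% and 4.11% of the family level per kb in the VC samples and 71.9%, 73.0% and 72.5% in the VHL-KO samples. NDRG3 went from 83.7%, 82.1% and 86.1% to 24.4%, 23.2% and 23.9%. The family was thus mostly NDRG3 in every VC sample and mostly NDRG1 in every VHL-KO sample. Measured against each other per kb, NDRG1 stood at 0.0513, 0.0521 and 0.0477 times NDRG3 in VC and at 2.95, 3.14 and 3.04 times NDRG3 in VHL-KO. The ratio of NDRG3 to NDRG4 overlapped between the groups, at 7.26, 6.18 and 8.97 in VC and 6.96, 6.45 and 7.13 in VHL-KO.

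**Figure D3:**
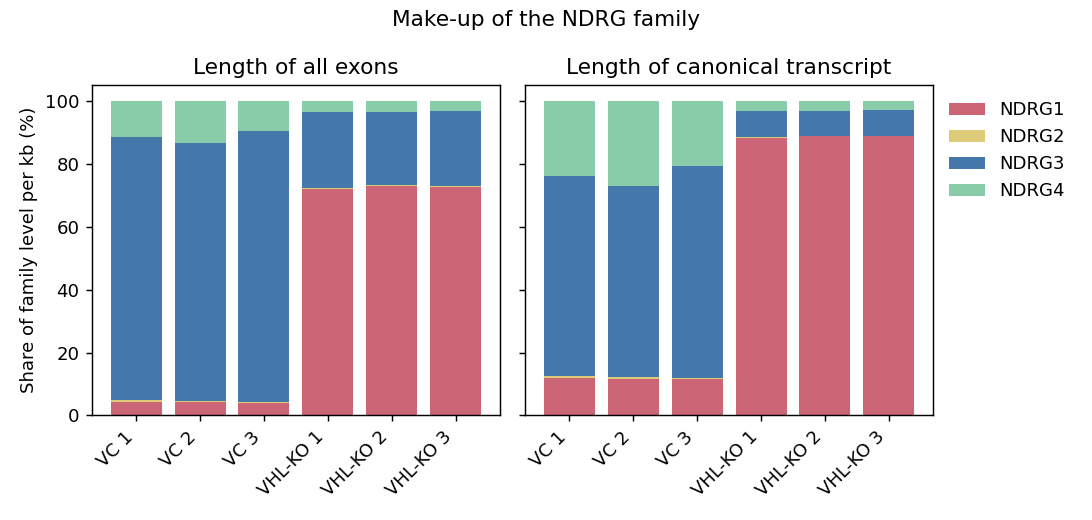
Share of each NDRG gene in the summed family level per kb (y axis, percent) in each VC and VHL-KO sample, with lengths of all exons on the left and of canonical transcripts on the right. NDRG1 takes 4.23% of the family in VC and 72.5% in VHL-KO with exonic lengths, and 11.6% and 88.5% with canonical lengths.

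NDRG1 was set beside 39 genes of a hypoxia signature, a list that does not hold NDRG1. Like the other lists it was written with earlier results of these data known. Its shares and the place of NDRG1, which was selected on its fold change, are therefore descriptions. CA9 reached 10 reads in VHL-KO samples alone and was tested because it is high there. With a filter of 10 reads in every sample 33 genes were higher. Of these 39 genes 34 were higher, 4 were lower and 1 did not pass the test, or 87.2% higher and 10.3% lower beside 28.5% and 31.2% of all tested genes, with a median log2 fold change of 1.23 beside -0.01. In the joint order NDRG1 took place 2, below CA9, the cell-surface carbonic anhydrase, and above PPFIA4, ALDOC and ENO2. Without VC replicate 2 it stood below PPFIA4 as well, where the log2 fold change of NDRG1 was 6.02 and the log2 fold change of PPFIA4 was 6.06. CA9 had 0, 0 and 2 reads in VC and 288, 247 and 233 reads in VHL-KO, a ratio of 562 with a 95% counting interval of 155 to 4646, and 35.7% of its exonic bases overlap a gene on the opposite strand. PPFIA4, a liprin, had 27, 35 and 17 reads in VC and 1001, 927 and 888 reads in VHL-KO, all far above VC. Its log2 fold change was 5.69 with an SE of 0.20 (edgeR adjusted p = 4.99e-17), next to 6.03 in NDRG1. The glycolytic enzymes ALDOC and ENO2 had log2 fold changes of 4.28 and 4.27. VEGFA, the angiogenic ligand, was at 27.2 ± 2.25 CPM in VC and 152 ± 15.7 CPM in VHL-KO (SD, n = 3), a log2 fold change of 2.48. EGLN3, an oxygen sensor of HIF, went against the list, with 69, 41 and 67 reads in VC and 10, 20 and 19 reads in VHL-KO and a log2 fold change of -1.26 (edgeR adjusted p = 0.00337).

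**Figure D4:**
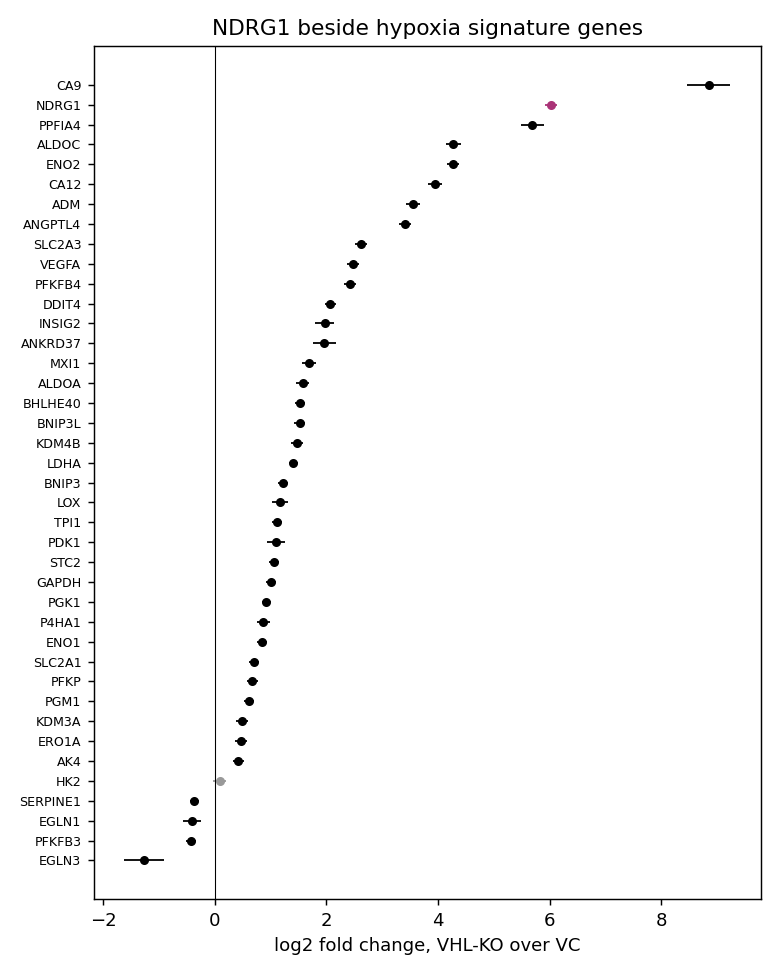
Log2 fold change of VHL-KO over VC (x axis, points with standard error bars) for the 39 hypoxia signature genes and NDRG1 in purple, in order of size, with grey for the gene that did not pass edgeR's test. NDRG1 at 6.03 takes place 2 of the order, below CA9 and above PPFIA4 at 5.69, though below PPFIA4 without VC replicate 2.

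Sequence around the start sites was read for the letters of the hypoxia response element, ACGTG or GCGTG on either strand, because NDRG1 stood among hypoxia genes. CACGTG, the E-box bound by MYC, was also searched, and each CACGTG holds ACGTG on both strands. The RefSeq windows (GRCh38.p14) run from 250 bases before to 50 bases after a gene start, and NDRG2 and NDRG4 matched the table, but NDRG1 and NDRG3 did not. Of all 35116 windows 48.5% hold ACGTG or GCGTG and 7.26% hold CACGTG. NDRG2 has the letters in 3 of 5 windows, of which 2 overlap and share a site, and NDRG4 in 1 of 4 windows, which holds GCGTG 4 times on the minus strand. CA9, PPFIA4, ALDOC and ENO2, beside NDRG1 in the hypoxia order, each have them in 1 of 1 windows, and EGLN3 has 0 in 1 window. CACGTG is held 1 time each by the windows of PPFIA4 and ALDOC, and 0 times by those of NDRG2, NDRG4, CA9, ENO2 and EGLN3. Of the genes nearest to NDRG1 in profile, described further on, KNDC1 has them in 1 of 1 windows, but HTRA1 and DEPP1 in 0 of 1 and ARHGEF6 in 0 of 2. A match is a description of letters and no match says nothing of a factor. The sites below are 30 bases each, 5′ to 3′ on the strand of the gene, with the letters or their reverse complement in capitals. They lie at chr14:21025164-21025193 and chr14:21071011-21071040 (minus strand), chr16:58463539-58463568, chr16:58463627-58463656 and chr16:58463685-58463714 (plus strand), chr9:35673897-35673926, chr1:203026360-203026389 and chr12:6914449-6914478 (plus strand).
NDRG2 inner site: ggtgaaaggggggGCGTGtttactgggggt
NDRG2 outer site: gctctggcagtgtCACGCcccctggtactg
NDRG4 far site: agaaggcggaagcCACGCgcgagggaccgc
NDRG4 middle site: cgccaaaccCACGCgggCACGCccccgcgg
NDRG4 near site: ctgcagccgcgggCACGCggaggggctcct
CA9 site: ctcgtttccaatgCACGTacagcccgtaca
PPFIA4 far site: cggcgctctcgtCACGTGcccggacccgag
ENO2 site: cacccgcgctcgtACGTGcgcctccgccgg

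NDRG1 is phosphorylated in turn by several kinases. Of the 12 genes of the kinases and of mTORC2, the complex that activates SGK1, 3 were higher, 4 were lower and 5 did not pass the test, or 58.3% called beside 59.7% of all tested genes, and the median log2 fold change was 0.02. With GC and length offsets 6 were higher. SGK1 had 155, 148 and 197 reads in VC and 39, 29 and 23 reads in VHL-KO, so that its transcript was lower in every sample with high NDRG1. Its log2 fold change was -1.91 with an SE of 0.22 (edgeR adjusted p = 8.38e-08). PDPK1, which phosphorylates SGK1, fell by 1.03 on the log2 scale, and 23.7% of its exonic bases overlap a gene on the opposite strand. PRR5L and PRR5, which bind mTORC2, rose by 3.66 and 1.00 on the log2 scale. PRR5L was low in VC, at 18, 14 and 14 reads against 166, 130 and 107 reads in VHL-KO. GSK3B, which adds phosphates after SGK1, was at 34.1 ± 1.88 CPM in VC and 32.6 ± 2.12 CPM in VHL-KO (SD, n = 3), with overlapping groups. The value of GSK3B changed sign with the processing: the log2 fold change of GSK3B was -0.06 (edgeR adjusted p = 0.63), but 0.049 with upper quartile factors and 0.26 with GC and length offsets (edgeR adjusted p = 0.00945). Over all alternatives its adjusted p by edgeR or DESeq2 ranged from 0.00601 to 0.995.

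Of 10 regulators of NDRG transcription, 8 were tested, and 1 was higher, 5 were lower and 2 did not pass the test, or 12.5% higher and 62.5% lower beside 28.5% and 31.2% of all tested genes. The median log2 fold change was -0.52, and it was closer to 0 with GC and length offsets. MYCN, the repressor that gave the family its name, had 0 reads in every sample. HIF1A had 2128, 1591 and 3078 reads in VC and 315, 317 and 262 reads in VHL-KO. The transcript of this HIFα subunit was thus lower in every VHL-KO sample, with a log2 fold change of -2.35 and an SE of 0.14 (edgeR adjusted p = 6.42e-13). EPAS1, which encodes HIF2α, fell by 0.56 on the log2 scale, from 182 ± 13.5 CPM in VC to 123 ± 3.23 CPM in VHL-KO (SD, n = 3). MYC, a repressor of NDRG1, fell by 0.82, and EGR1, an immediate early factor, rose by 0.85 on the log2 scale. Transcript levels say nothing of the amount of HIFα protein, which VHL sets. By immunoblot, the study reported that HIF1α and HIF2α protein accumulated in VHL-KO Caki-1 cells.

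Of 8 partners and trafficking genes of NDRG1, 7 were tested, and 2 were higher, 4 were lower and 1 did not pass the test, or 28.6% higher and 57.1% lower beside 28.5% and 31.2% of all tested genes, with a median log2 fold change of -0.29. With GC and length offsets that median was 0.12, and 1 gene was higher and 2 were lower. The 4 lower genes became 2 to 3 when each sample was left out in turn. CTNNB1, which encodes β-catenin, had 5874, 5295 and 7718 reads in VC and 1884, 1857 and 1652 reads in VHL-KO. It was lower in every VHL-KO sample, with a log2 fold change of -1.24 (SE 0.10). ERRFI1, an inhibitor of the EGF receptor, rose by 0.65 and CD82, a tetraspanin, by 0.44 on the log2 scale. The rise of CD82 did not pass the test with GC and length offsets, at 0.15 (edgeR adjusted p = 0.0518, the highest of its alternatives, whose lowest was 3.75e-06). CDH1, which encodes the E-cadherin that NDRG1 helps to recycle, had 0, 3 and 1 reads in VC and 0 reads in each VHL-KO sample, too few to be tested.

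**Figure D5:**
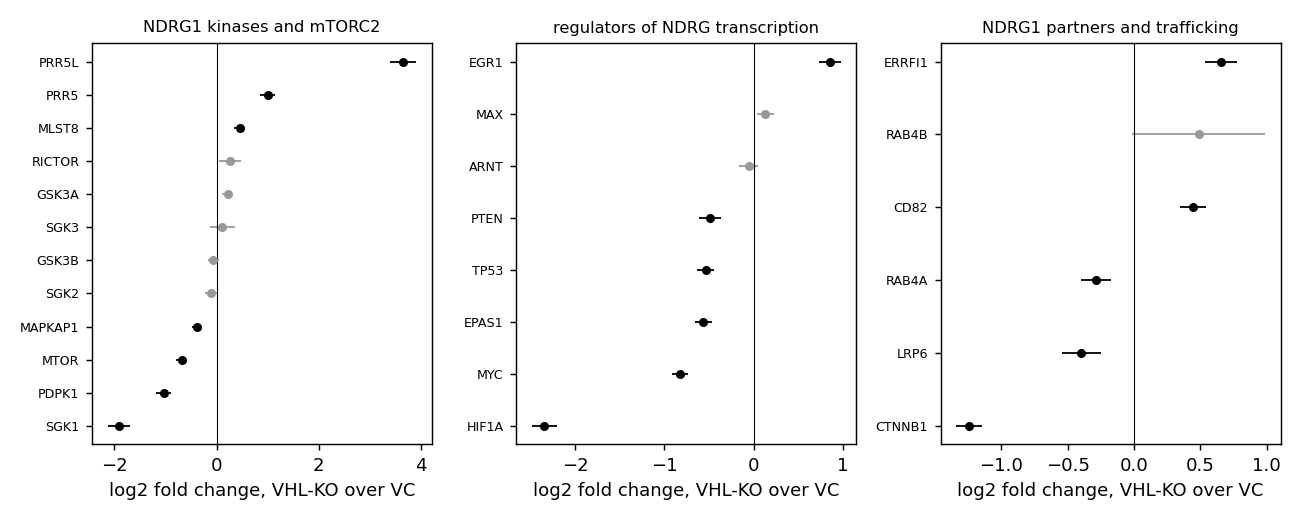
Log2 fold change of VHL-KO over VC (x axes, points with standard error bars) for genes of 3 lists around NDRG1, with black for genes past an adjusted p of 0.05 by edgeR's test and grey for the rest. SGK1 at -1.91, HIF1A at -2.35 and CTNNB1 at -1.24 are the lowest of their lists, and PRR5L at 3.66 is the highest of the first.

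Profiles were compared over the 6 samples by the root mean square difference of log2 CPM after each gene's own mean was subtracted, among the 10909 genes with a mean of at least 100 scaled counts. Nearest to NDRG1 were KNDC1 at 0.19, HTRA1 at 0.22, ARHGEF6 at 0.26, DEPP1 at 0.37 and PPFIA4 at 0.44. KNDC1 had 4, 4 and 7 reads in VC and 402, 354 and 376 reads in VHL-KO, and HTRA1, a secreted protease, had 84, 60 and 72 reads against 2910, 2463 and 2203 reads. KNDC1, HTRA1, ARHGEF6 and PPFIA4 reached the mean of 100 through VHL-KO alone, where they are high. For KNDC1, with a log2 fold change of 6.75, the prior count of 2 used here draws the fold towards that of NDRG1, so that its likeness rests partly on the method. Nearest to NDRG2 were TMEM167B-DT at 0.12, ANXA2R at 0.17, GSTM2 at 0.18, CCDC159 at 0.20 and LRRC56 at 0.22. PRCP, NRDC, TOR1AIP2, TMEM199 and PLPP6 lay at 0.0183 to 0.0281 from NDRG3, and LPCAT4, ABHD11, ZNF783, PLEKHJ1 and CMTM7 at 0.0249 to 0.0324 from NDRG4. Like NDRG3 and NDRG4, these 10 genes differed little between the groups.

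On chromosome 8, the 3 tested protein-coding genes on each side of NDRG1 lie 102 to 2155 kb from it, and 1 was higher, 1 was lower and 4 did not pass the test. ST3GAL1, a sialyltransferase, had 639, 599 and 717 reads in VC and 144, 141 and 130 reads in VHL-KO. It was lower in every VHL-KO sample while NDRG1 was higher, with a log2 fold change of -1.68 and an SE of 0.15 (edgeR adjusted p = 4.69e-10). TG, the gene that passed the test upwards, had 0, 2 and 0 reads in VC and 3, 15 and 1 reads in VHL-KO, so that it is tested through VHL-KO replicate 2 alone and has no value without it. Its call was lost without VC replicate 1 (edgeR adjusted p = 0.0601) and without VC replicate 3 (edgeR adjusted p = 0.06), and by edgeR or DESeq2 the alternatives ranged from 0.00636 to 0.0601. TMEM71, PHF20L1, ZFAT and KHDRBS3 did not pass the test. PHF20L1 went from 0.26 (edgeR adjusted p = 0.0903) to 0.79 with GC and length offsets (edgeR adjusted p = 4.06e-07), the log2 fold change of PHF20L1 being higher past the threshold in 5 of 15 alternatives. TMEM71, with 0, 0 and 1 reads in VC and 0, 11 and 0 reads in VHL-KO and likewise untested without VHL-KO replicate 2, was higher past the threshold in 5 of 13 alternatives. Over the 24 neighbours of the 4 members, 7 were higher, 12 were lower and 5 did not pass the test, where 28.5% of all tested genes were higher and 31.2% lower, with a median log2 fold change of -0.41. Of the 7 higher neighbours TG, TLDC2 and TMEM253 reached 10 reads in VHL-KO samples alone and were tested because they are high there, and TMEM253 passed in 4 of 13 alternatives, so the count of 7 is not comparable with the share of all genes.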

How the data were processed

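Per the methods and labels of the study, the authors trimmed reads with Trim Galore and Cutadapt, aligned them with STAR to GRCh38.p13, kept reads that mapped to 1 place with SAMtools and counted reads per gene with HTSeq. The deposited values are raw counts without normalization. The annotation release, strandedness and versions are not given in the sources used here, so reads from genes that overlap on opposite strands cannot be told apart.

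VHL-KO was compared with VC in edgeR 4.0.16 (R 4.3.3; TMM factors, quasi-likelihood test, Benjamini-Hochberg adjustment, threshold 0.05) over 17401 genes, those that had 10 reads or more in any of the samples, and all 4 NDRG genes passed this filter. Standard errors are the log2 fold change over the square root of F. Positions, lengths and GC contents came from GENCODE 44, which matched 17355 of these genes. The fit was tested on simulated data with few changed genes and no trend with GC content. The simulation therefore does not cover changes as widespread as those here, or their trend with GC content. A gene at 0 counts may lie below 3 counts, or 0.079 to 0.141 CPM; such floors and intervals cover counting error alone. Replicate pairs differed by more than sampling noise, at a chi-square per degree of freedom of 6.03 to 31.9.

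The NDRG members and all gene lists were chosen with earlier results of these data known. Values of 2 genes that the lists hold and their counts include are not reported here. Genes are named by a rule: VHL and the members; in the lists of kinases, regulators and partners up to 4 genes with the largest change past the threshold with SGK1, GSK3B, HIF1A, EPAS1, MYC and CDH1 in any case; in the hypoxia list the genes next to NDRG1 with CA9, VEGFA and EGLN3; in the hydrolase list the 3 largest changes with a mean of at least 100 scaled counts; the 3 tested protein-coding neighbours on each side; and the 5 nearest profiles (log2 CPM with a prior count of 2). Alternatives were scaling by library size alone, by upper quartiles or by relative log expression, DESeq2 1.42.0, filters of 1 read in any and 10 reads in every sample, each sample left out, the replicate number as a block, GC and length offsets (natural splines, 5 degrees of freedom), and canonical or no lengths.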

Additional observations from a re-analysis of the deposited data

How the results depend on the processing

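The groups hold 3 samples each, which clone was sequenced is not stated, and whether replicates are separate cultures is not stated, so the values describe these 6 libraries. NDRG2 had 14 to 44 reads in a sample, so its change is imprecise. A whole-gene count shows neither an edit in VHL nor protein or phosphorylation. Strand was not stated, which touches VHL, CA9, PDPK1, PAX8 and ALDOC among others. All 4 members were chosen with their changes known.

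For the named genes other than the members, 655 of 694 comparisons with an alternative kept direction and side of the threshold, 20 no longer passed it, 14 newly passed it and 5 reversed. GSK3B, at -0.064, reversed to 0.049 with upper quartile factors (edgeR adjusted p = 0.723), 0.26 with GC and length offsets (edgeR adjusted p = 0.00945) and 0.25 with block and offsets together (edgeR adjusted p = 0.00601). Both the log2 fold change of GSK3B and the log2 fold change of CSNK2A2, beside NDRG4, are the values that reversed, CSNK2A2 from -0.27 to 0.072 with offsets (edgeR adjusted p = 0.392) and 0.073 with block and offsets (edgeR adjusted p = 0.372). The calls of VHL, CD82, TG and CSNK2A2 were lost in some alternatives and that of TMEM253 in most, and CCDC113, PHF20L1, TMEM71 and ZFAT, which did not pass, passed in some.

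Of 462 alternative values of calls, members, lists, levels and shares, 76 moved by more than the SD between samples or, for counts of genes, by more than 1.5 times. Within that wide limit for counts, the genes called VHL-KO against VC, higher, went from 4958 to 5712 by upper quartiles and to 3764 by library size, and the genes called VHL-KO against VC, lower, from 5436 to 4668 and to 6737. Among members, the log2 fold change of NDRG1 was 6.14 with upper quartile factors and 5.84 with library size alone. For NDRG3 it was 0.22 with upper quartile factors, -0.085 with library size alone, 0.22 with offsets and 0.22 with block and offsets. For NDRG4 it was 0.026 with library size alone, -0.15 with offsets and -0.15 with block and offsets. The cause was not tested. Numbers of replicates do not pair the groups (r of same numbers 0.242, -0.142 and 0.0787), and with the number as a block 10284 genes were called beside 10394.

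For the NDRG1 kinases and mTORC2: genes called higher were 6 with offsets and 6 with block and offsets. NDRG1 kinases and mTORC2: median log2 fold change 0.14 with upper quartile factors, -0.17 with library size alone and -0.084 to 0.12 with a sample left out. Among regulators of NDRG transcription: genes called higher were 2 with upper quartile factors. In regulators of NDRG transcription: median log2 fold change -0.40 with upper quartile factors, -0.71 with library size alone, -0.31 with offsets, -0.31 with block and offsets and -0.55 to -0.42 with a sample left out. NDRG1 partners and trafficking: genes called higher were 1 with offsets. NDRG1 partners and trafficking: genes called lower were 2 with upper quartile factors, 2 with offsets, 2 with block and offsets and 2 to 3 with a sample left out. NDRG1 partners and trafficking: median log2 fold change -0.17 with upper quartile factors, -0.48 with library size alone, -0.38 with a filter of 1 read, 0.12 with offsets and 0.13 with block and offsets. In hypoxia signature genes: median log2 fold change 1.34 with upper quartile factors, 1.04 with library size alone, 1.45 with offsets and 1.44 with block and offsets. In alpha/beta hydrolase fold relatives: median log2 fold change 0.40 with upper quartile factors, 0.10 with library size alone and 0.23 to 0.39 with a sample left out.

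The median log2 fold change of genes with a GC content near that of NDRG1 was 0.22 with upper quartile factors, -0.084 with library size alone, -0.039 with offsets and -0.046 with block and offsets. In the same order it was 0.36, 0.062, -0.054 and -0.055 as the median log2 fold change of genes with a GC content near that of NDRG2, and 7.04e-04, -0.30, -0.014 and -0.023 as the median log2 fold change of genes with a GC content near that of NDRG3. The median log2 fold change of genes with a GC content near that of NDRG4 was 0.18 with library size alone, -0.063 with offsets and -0.065 with block and offsets.

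With canonical lengths, chosen after seeing the data, the level per kb of NDRG1 in VC was 3.85 and the level per kb of NDRG1 in VHL-KO 252. The level per kb of NDRG2 in VC was 0.20 and the level per kb of NDRG2 in VHL-KO 0.534. The level per kb of NDRG3 in VC was 21.2 and the level per kb of NDRG3 in VHL-KO 22.9. The level per kb of NDRG4 in VC was 7.89 and the level per kb of NDRG4 in VHL-KO 9.17. Shares are given with canonical lengths, as shares of the family level per kb, and then without dividing by length, as shares of reads: the share of family reads of NDRG1 in VC was 11.6% and 11.6% and the share of family reads of NDRG1 in VHL-KO 88.5% and 88.5%. Likewise, the share of family reads of NDRG2 in VC was 0.603% and 0.592%, the share of family reads of NDRG2 in VHL-KO 0.188% and 0.185%, the share of family reads of NDRG3 in VC 63.9% and 62.6%, and the share of family reads of NDRG3 in VHL-KO 8.05% and 7.90%. The share of family reads of NDRG4 in VC was 23.9% and 25.2%, and the share of family reads of NDRG4 in VHL-KO was 3.23% with canonical lengths.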

Other observations

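Of 27 relatives of the NDRG family with the alpha/beta hydrolase fold, 25 were tested, and 12 were higher, 8 were lower and 5 did not pass the test, or 48.0% higher and 32.0% lower beside 28.5% and 31.2% of all tested genes, with a median log2 fold change of 0.29 beside -0.01 over all tested genes. EPHX4, among the 8 lower, reached 10 reads in VC samples alone and was tested because it is high there. With 10 reads in every sample 13 were higher and 6 lower, and with GC and length offsets 12 were higher and 6 lower. PPME1, a demethylase of protein phosphatase and the most abundant of the list, had 23637, 20503 and 23866 reads in VC and 5506, 4222 and 4641 reads in VHL-KO. It was lower in every VHL-KO sample, with a log2 fold change of -1.70 and an SE of 0.09 (edgeR, Benjamini-Hochberg adjusted p = 5.57e-14). ABHD3, a phospholipase, fell by 1.99 and ABHD17C, a depalmitoylase, by 1.61 on the log2 scale. ABHD11 was both of this list and among the nearest profiles of NDRG4, at 29.6 ± 3.93 CPM in VC and 35.0 ± 0.814 CPM in VHL-KO (SD, n = 3), and did not pass the test.

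Around the other members, the nearest tested protein-coding gene to NDRG3, DSN1 at 5.70 kb, and the nearest to NDRG4, SETD6 at 1.85 kb, were lower in VHL-KO, with log2 fold changes of -0.87 and -1.16. ARHGEF40 overlaps NDRG2 and fell by 0.57 on the log2 scale, from 52.6 ± 6.18 CPM in VC to 35.5 ± 4.72 CPM in VHL-KO (SD, n = 3). Other neighbours were higher in VHL-KO: ANG at 2.71, TMEM253 at 2.47 and ZNF219 at 1.27 beside NDRG2, TLDC2 at 3.80 and MYL9 at 0.80 beside NDRG3, and SLC38A7 at 0.61 beside NDRG4, all on the log2 scale. Over the alternatives the log2 fold change ran from 2.20 to 3.89 for ANG, from 1.88 to 3.64 for TMEM253 and from 3.24 to 4.30 for TLDC2. The remaining neighbours PNP, METTL17, TGIF2, RAB5IF, SOGA1, GINS3, CNOT1 and CSNK2A2 were lower, CSNK2A2 at -0.27 but at 0.072 with GC and length offsets, and CCDC113 did not pass the test.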
